A study of Mus musculus with 7 samples.

Results

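The genes of the mouse mitochondrial genome were described in pancreatic islets of 7-day-old mice, in 4 pools from βNrf2KO mice and 3 pools from control mice. The members were the annotated genes located on the mitochondrial chromosome (MT), which gave 35 of the 49315 mouse genes counted. They comprised 13 mRNAs and 22 transfer RNAs (tRNAs), while the ribosomal RNA genes of this genome were not analysed here. The plus strand carried 26 of them (12 mRNAs and 14 tRNAs) and the minus strand 9 (mt-Nd6 and 8 tRNAs). βNrf2KO mice are described as a β-cell specific deletion of Nrf2, the gene Nfe2l2, and the control mice as Nrf2lox/lox, the floxed allele without the deletion. Sources used here do not name the Cre driver. The treatment protocol describes each sample as a pool of RNA of 5 animals, while each title names a single mouse. The samples are called pools after the protocol. Libraries were made from total RNA after depletion of ribosomal RNA. The study asked how Nrf2, a transcription factor of the antioxidant response, stimulates β-cell proliferation in neonatal islets, and its title speaks of mitochondrial biogenesis and function. Pools carry the numbers 1 to 4 in βNrf2KO and 1, 2 and 4 in control. The labels do not say whether the pools came from separate litters or isolations, so p-values measure the spread between these 7 samples.

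The mitochondrial genome is a small circle that is transcribed from both strands into long RNAs spanning many genes. Most mRNAs are flanked by tRNAs, and cutting the tRNAs out of the long RNA releases the mRNAs between them. The mRNAs encode core subunits of the respiratory chain and of ATP synthase, while all other subunits come from the nucleus. In β-cells, ATP made by mitochondria closes the potassium channels that gate insulin secretion.

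The sequences below belong to the 6 tRNAs that passed the test when pools were paired by number, and to mt-Te, the tRNA with the most counts summed over the 7 pools. They are written as genomic letters in the sense of the tRNA, 5′ to 3′, from the GENCODE M21 transcripts (GRCm38), with the anticodon in capitals. Among triplets that fit the amino acid in the gene's name under the vertebrate mitochondrial code, the anticodon was the one with the best paired stem. Its match to the name was therefore set by this choice in all 22 tRNAs.
mt-Tp, proline, minus strand, chrMT:15356-15422: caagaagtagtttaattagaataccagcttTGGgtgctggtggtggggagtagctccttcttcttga
mt-Ta, alanine, minus strand, chrMT:5018-5086: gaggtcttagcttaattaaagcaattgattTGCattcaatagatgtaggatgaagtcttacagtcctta
mt-Tl1, leucine, plus strand, chrMT:2676-2750: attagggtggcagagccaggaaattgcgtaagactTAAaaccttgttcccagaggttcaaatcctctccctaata
mt-Tm, methionine, plus strand, chrMT:3845-3913: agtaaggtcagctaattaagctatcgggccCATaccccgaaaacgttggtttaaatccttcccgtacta
mt-Tw, tryptophan, plus strand, chrMT:4950-5016: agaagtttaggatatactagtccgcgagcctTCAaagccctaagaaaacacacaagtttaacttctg
mt-Tq, glutamine, minus strand, chrMT:3772-3842: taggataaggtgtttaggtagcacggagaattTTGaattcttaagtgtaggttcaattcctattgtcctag
mt-Te, glutamate, minus strand, chrMT:14071-14139: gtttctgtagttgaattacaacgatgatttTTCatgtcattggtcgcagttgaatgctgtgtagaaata

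Part of the mitochondrial genome has a near-identical copy in the nucleus, and reads from such bases match both places. The annotated pieces of this copy lie on chromosome 1, minus strand, between 24611535 and 24616197 (GRCm38), and comprise 7 genes. Aligned with their mitochondrial partners, 5 of the 7 pairs were identical and the other pairs had 1 mismatch each, 2 mismatches in 4140 aligned bases. The differing base stands in capitals in the pairs of 60 bases that follow. Positions in the substitutions count from 1 at the first base of the mitochondrial gene, with the mitochondrial base first. The pair of mt-Co1 and Gm29216 differed by A1066T, and that of mt-Nd3 and Gm28438 by T3C. Only 483 of the 492 bases of Gm29216 aligned. The chromosome 1 position printed for its stretch was counted from the end of the gene, so it is off by the bases unaligned there.
mt-Co1, chrMT:6390-6449, plus strand: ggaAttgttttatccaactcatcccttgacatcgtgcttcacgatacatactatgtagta
Gm29216, chr1:24616138-24616197, minus strand: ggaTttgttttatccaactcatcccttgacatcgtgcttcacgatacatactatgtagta
mt-Nd3, chrMT:9459-9518, plus strand: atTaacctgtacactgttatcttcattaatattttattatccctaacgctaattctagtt
Gm28438, chr1:24613060-24613119, minus strand: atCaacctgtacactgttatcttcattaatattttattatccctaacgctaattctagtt

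Total counts ran from 18187382 to 20847474 in βNrf2KO pools and from 21603654 to 25373105 in control pools, so every βNrf2KO pool was the shallower. Cre recombinase counts were 24, 23, 46 and 73 in βNrf2KO pools 1 to 4 and 0 in each control pool. Nfe2l2 stood at 83.1 to 95.2 nuclear CPM (counts scaled to a total of 1000000 over the nuclear genes) in βNrf2KO pools and 56.0 to 123 in control pools. These values overlapped, and counts over a whole gene in whole islets do not check the deletion. All 8 β-cell markers and all 4 α-cell markers had at least 10 counts in every pool.

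RNA of the mitochondrial genome took a smaller share of all counts in βNrf2KO pools than in the control pool of the same number, but the groups overlapped. The share was 27.7%, 22.4%, 20.6% and 10.02% in βNrf2KO pools 1, 2, 3 and 4, against 43.0%, 51.8% and 14.6% in control pools 1, 2 and 4. Control pool 4 lay below 3 of the 4 βNrf2KO pools, and βNrf2KO pool 4 was the lowest of all. Means were 20.2% ± 7.43 (SD, n = 4) in βNrf2KO and 36.5% ± 19.4 (SD, n = 3) in control, a difference of -16.3 percentage points against a pooled SD of 13.6. The difference was -8.61 points without control pool 2 and -27.2 points without control pool 4. Wilson 95% intervals were at most 0.0209 points wide to each side, so counting error is small beside the spread between pools. As a ratio of mitochondrial to nuclear counts, the βNrf2KO pool held 0.509, 0.268 and 0.651 times the value of the control pool for numbers 1, 2 and 4. In whole islets, fewer β-cells, fewer mitochondria per cell and less RNA per mitochondrion cannot be told apart.

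**Figure D1:**
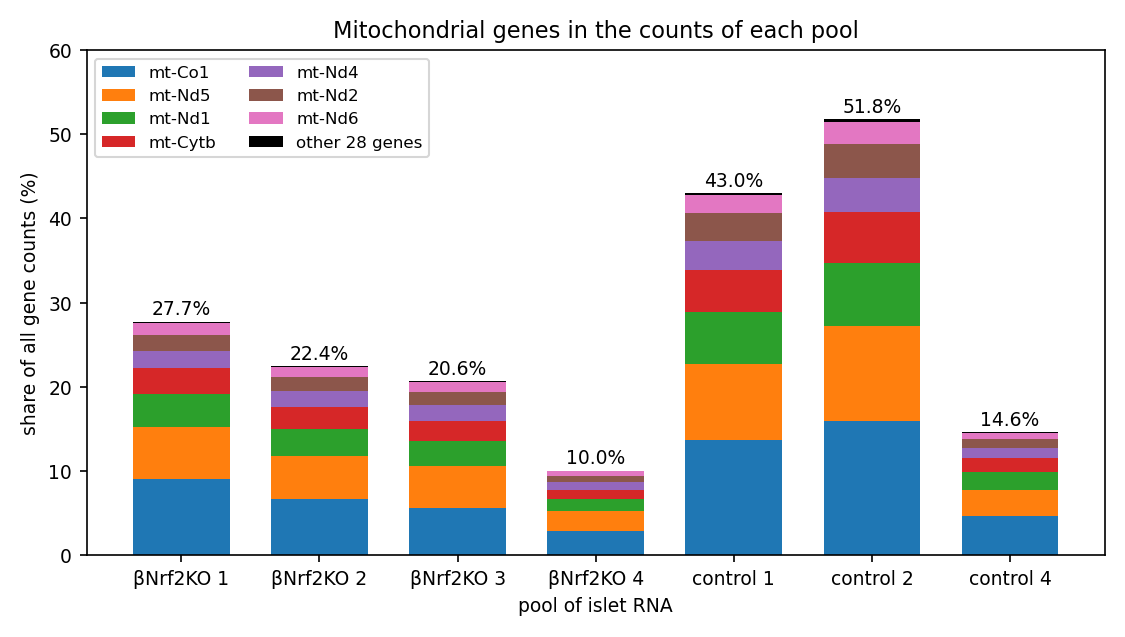
Share of all gene counts held by the 35 mitochondrial genes in each pool, in percent, with βNrf2KO pools left of control pools. The βNrf2KO pools lie between 10.02% and 27.7%, inside or below the control range of 14.6% to 51.8%.

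Cell-type markers also differed between pools. The summed level of the 8 β-cell markers was 46996 to 62300 nuclear CPM in βNrf2KO pools and 21217 to 65022 in control pools. Most of this sum came from Ins1, Ins2 and Iapp. Of the 8, only Mafa did not overlap, at 10.3 to 15.3 in βNrf2KO pools and 17.5 to 23.5 in control pools. Control pool 2, with the highest mitochondrial share, had the lowest β-cell sum, and control pool 4, with the lowest share among controls, had the highest. In βNrf2KO pools 1 to 4 the sum was 59164, 46996, 62300 and 50342, which did not follow the order of their mitochondrial shares. The 4 mesenchymal markers summed to 579 to 1195 in βNrf2KO pools and 647 to 1686 in control pools, and all were detected in every pool. The 10 acinar markers summed to 53.2 to 236 in βNrf2KO pools and 58.4 to 427 in control pools. In that list 7 had at least 10 counts in every pool, Amy2a5 was at 0 throughout, and Ptf1a was at 0 in all but control pool 2. The 4 ductal markers summed to 51.0 to 74.9 in βNrf2KO pools and 36.3 to 50.7 in control pools. This was the one list whose groups did not overlap, and 3 of its markers had at least 10 counts in every pool. Of the 4, only Spp1 did not overlap, at 21.5 to 35.6 in βNrf2KO pools and 11.5 to 15.7 in control pools. The 4 α-cell markers summed to 7400, 10588, 26004 and 22464 in βNrf2KO pools 1 to 4, against 5864, 6032 and 19595 in control pools 1, 2 and 4. They were lowest in control pools 1 and 2, which had the highest mitochondrial shares, and highest in βNrf2KO pools 3 and 4 and control pool 4, which had the lowest. Sums of δ-cell, PP-cell, endothelial, macrophage and erythroid markers overlapped between the groups. Markers of brown fat and muscle, other cells rich in mitochondria, summed to 2.92 to 4.10 in βNrf2KO pools and 3.46 to 7.70 in control pools, close to 0. The part of cell composition in the mitochondrial share was not tested.

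Complex I, the NADH dehydrogenase, takes 7 of its subunits from this genome. The level of mt-Nd1, counted per kb of gene length and as CPM over all genes (RPKM), was 40378, 33813, 31003 and 14787 RPKM in βNrf2KO pools 1 to 4, against 64550, 78207 and 22055 in control pools 1, 2 and 4. On the same scale mt-Nd5 stood at 33875, 28037, 27328 and 13109 in βNrf2KO pools and 49327, 61643 and 16578 in control pools. For both genes control pool 4 was lower than βNrf2KO pools 1 to 3, so the groups overlapped. mt-Nd6, the mRNA of the minus strand, was at 28442, 21613, 22227 and 10765 in βNrf2KO pools and 41478, 52118 and 14285 in control pools. mt-Nd2 averaged 14533 ± 4939 in βNrf2KO (SD, n = 4) and 27032 ± 14646 in control (SD, n = 3). mt-Nd4, of which only part lies outside the copied stretch, averaged 12080 ± 3620 in βNrf2KO and 20775 ± 11252 in control. The order of pools was alike in these genes, with control pool 2 highest and βNrf2KO pool 4 lowest. The remaining complex I members, mt-Nd3 and mt-Nd4l, lie inside the copied stretch and are described with it.

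Complex III, the cytochrome bc1 complex, takes only cytochrome b from this genome. mt-Cytb stood at 27063, 22651, 20640 and 9156 RPKM in βNrf2KO pools 1 to 4, against 44561, 53030 and 15479 in control pools 1, 2 and 4. In complex IV, cytochrome c oxidase, mt-Co1 encodes the catalytic subunit that binds oxygen. It was at 58660, 42736, 36396 and 18627 in βNrf2KO pools and 88387, 103011 and 30141 in control pools, the highest count of any member in every pool. Both genes showed the same overlap through control pool 4. The other subunits of complex IV, mt-Co2 and mt-Co3, and those of complex V, mt-Atp6 and mt-Atp8, all lie inside the copied stretch.

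Levels of mRNAs were then ordered per length of the bases outside the copy on chromosome 1. The assumption was that reads from bases of that copy added nothing. Bases with relatives of lower identity elsewhere were kept, as in mt-Co1, which aligned with Gm13340 at 97.6% identity over 1545 bases. Relative to mt-Nd1 in the same pool, mt-Co1 stood at 1.71 to 2.11 over the 7 pools, mt-Nd4 at 0.975 to 1.24 and mt-Nd5 at 0.752 to 0.887. mt-Nd6 stood at 0.639 to 0.728, mt-Cytb at 0.619 to 0.702 and mt-Nd2 at 0.465 to 0.502. The ranges of mt-Nd4 and mt-Nd1 overlapped, as did those of mt-Nd6 and mt-Cytb, while the other neighbours in this order were separate. The place of mt-Nd4 rests on the assumption. Over its full length it averaged 15806 RPKM over all pools, below the 19890 of mt-Nd2.

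**Figure D2:**
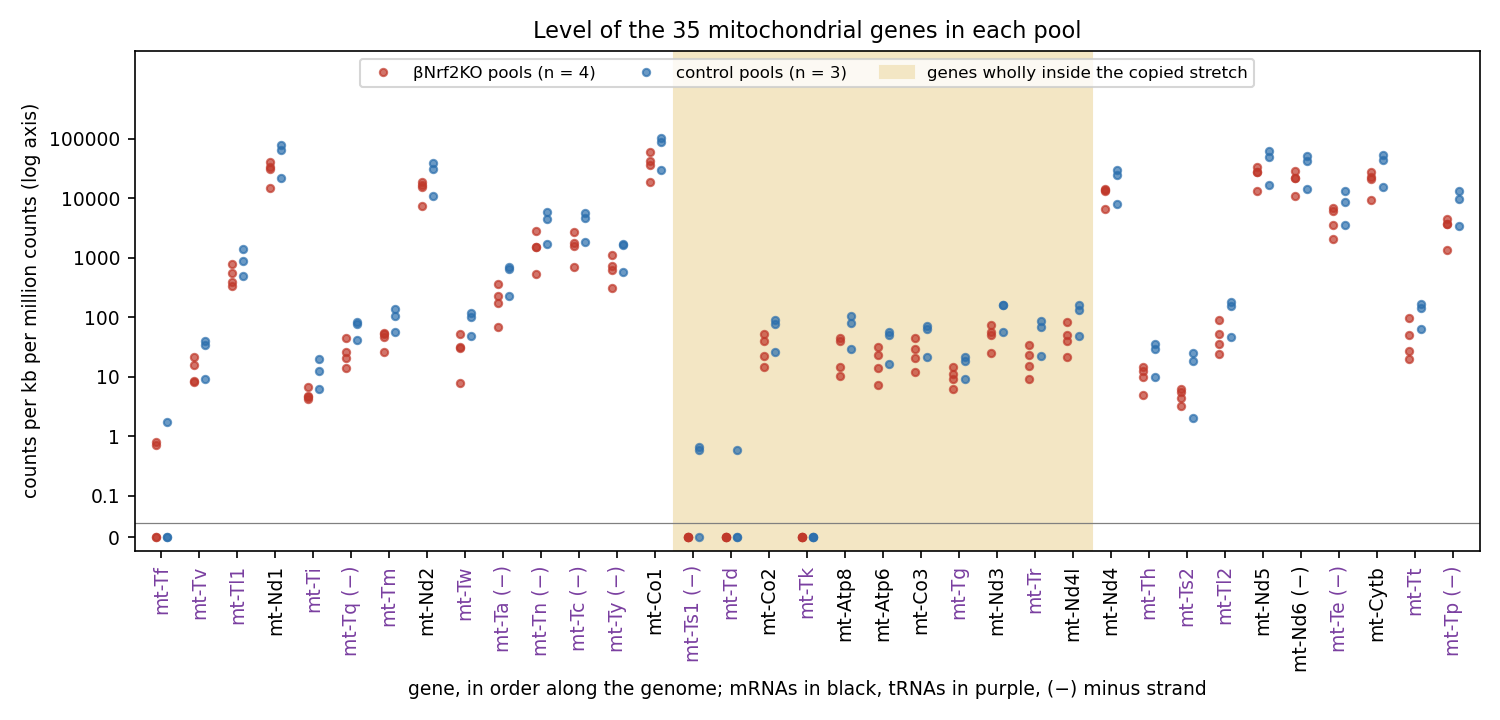
Level of each of the 35 genes in each pool, in RPKM on a log axis, in order along the genome, with βNrf2KO pools left of control pools and values of 0 on a separate line. The 7 mRNAs with most counts stand far above the 6 mRNAs inside the shaded copied stretch. In each of these 7 mRNAs control pool 4 falls among the βNrf2KO pools.

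All 29 genes with enough counts to test had a lower fitted level in βNrf2KO than in control islets, by about 1 to 2 on the log2 scale, yet no gene passed the threshold. The tested genes were the 13 mRNAs and 16 of the 22 tRNAs. With edgeR's quasi-likelihood test, adjusted over 19893 genes by Benjamini-Hochberg, 0 of 29 were called (background 0% of all tested genes), and each had an adjusted p of 0.571. DESeq2 and limma-voom also called 0 of the 29. At an unadjusted p under 0.05 the edgeR test had 24 of 29, all lower, where 5.23% of all tested genes were lower at that level (8.46% in either direction). That number was 3 without control pool 2, 9 without control pool 1, and 31 of 31 tested without control pool 4. Over all tested genes these fits had 475 of 20587, 2893 of 20466 and 3446 of 20326, in either direction. A log2 fold change of -1 or lower was found in 29 of 29 against 2.83% of all tested genes, and below 0 in 29 of 29 against 50.6%. The groups' log2 CPM values did not overlap in 0 of the 29, against 7% of all tested genes and 3.81% for those lower in βNrf2KO. These genes share a transcript and libraries, so their agreement in direction is no count of independent results.

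Log2 fold changes of the 13 mRNAs ran from -1.97 to -1.31, median -1.49, and those of the 16 tRNAs from -2.06 to -1.17 with a median of -1.84. The median of all tested genes was -0.01. Without control pool 2 the medians were -0.90 for mRNAs and -1.27 for tRNAs. mt-Co1 differed by -1.48 ± 0.58 (SE) and mt-Cytb by -1.49 ± 0.56. For complex I, mt-Nd1 differed by -1.45 ± 0.56 and mt-Nd5 by -1.31 ± 0.57. The minus-strand mRNA mt-Nd6 differed by -1.37 ± 0.55, inside the range of the plus-strand mRNAs. Within the numbered pairs, 28 of 29 genes were lower in the βNrf2KO pool of each pair. The exception was the glycine tRNA mt-Tg, with 8 to 18 counts in βNrf2KO pools and 16 to 31 in control pools, which was 0.12 higher in βNrf2KO in pair 4 on the log2 CPM scale.

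With the pool number as a block, 9 mitochondrial genes passed the threshold, all lower in βNrf2KO. Over all tested genes the block fit called 14, or 0.0704%, with 13 lower (0.0653%). Pool 3 of βNrf2KO has no control partner, so these values rest on the pairs 1, 2 and 4. The mRNAs called were mt-Atp6 (-1.51 ± 0.23, adjusted p = 0.0482) and mt-Atp8 (-1.72 ± 0.24, 0.0469) of ATP synthase and mt-Nd3 of complex I (-1.68 ± 0.21, 0.0244), each inside the copied stretch (all by edgeR with the block). The tRNAs called were mt-Tp (-1.87 ± 0.20, adjusted p = 0.0160 by edgeR) and mt-Ta (-1.97 ± 0.25, adjusted p = 0.0244), and 4 more at an adjusted p of 0.0482. These were mt-Tw (-2.17 ± 0.34), mt-Tq (-1.77 ± 0.28), mt-Tm (-1.69 ± 0.26) and mt-Tl1 (-1.46 ± 0.22). At an unadjusted p under 0.05 the block fit had 28 of 29, all lower, against 6.12% of all tested genes lower and 12.1% in either direction. None of the 7 mRNAs with most counts was called with the block: the smallest adjusted p among them was 0.229, for mt-Cytb (-1.33 ± 0.34). Their SE in that fit ran from 0.33 for mt-Nd2 to 0.39 for mt-Co1, against 0.21 for mt-Nd3.

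**Figure D3:**
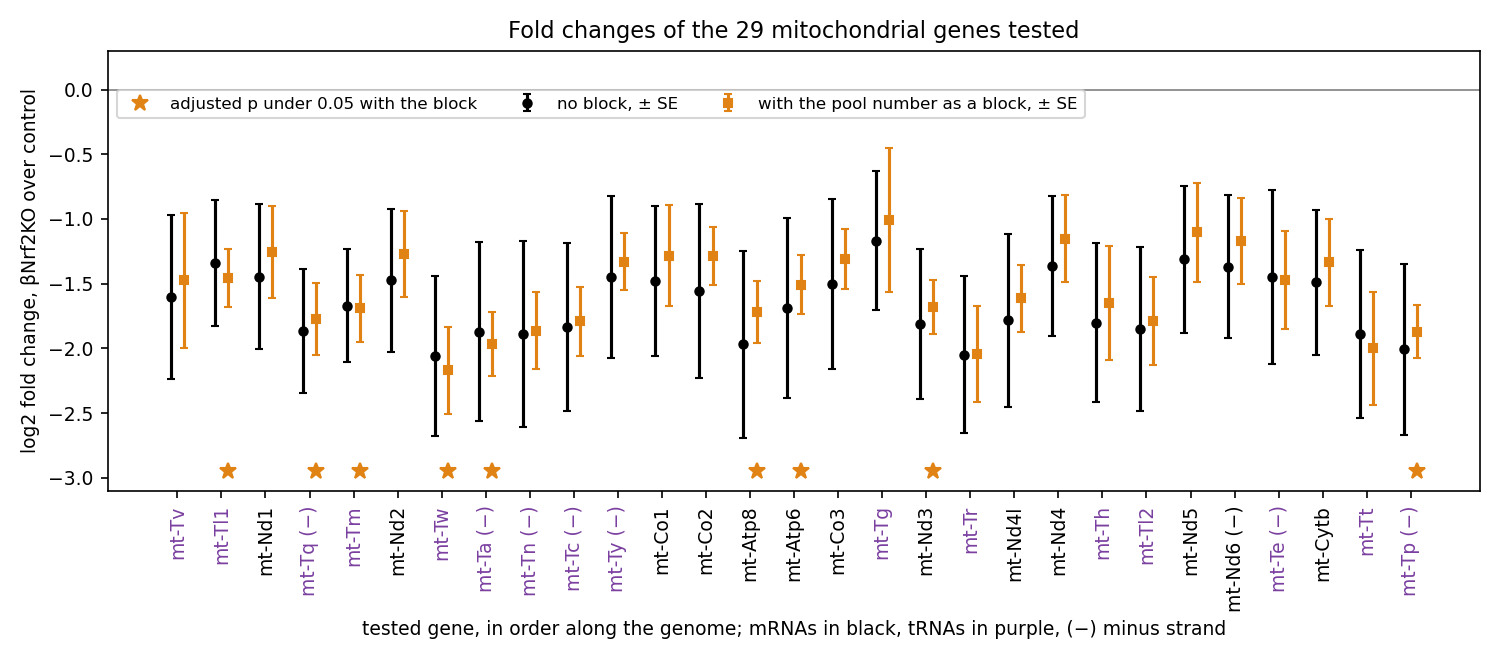
Log2 fold change of the 29 tested mitochondrial genes, βNrf2KO over control, with its SE, in order along the genome, from the fit without and with the pool number as a block. All values lie below 0, between -2.06 and -1.17 without the block, and stars mark the 9 genes past the threshold with it.

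Most tRNA counts came from genes of the minus strand. mt-Te, the glutamate tRNA, had 7617, 4709, 9279 and 2951 counts in βNrf2KO pools 1 to 4, against 12785, 22256 and 6124 in control pools 1, 2 and 4. Counts of mt-Tp were 4522, 5813, 4725 and 1897 in βNrf2KO pools, against 14155, 21689 and 5861 in control pools. The control pools were higher than the βNrf2KO pools in raw counts of mt-Tp, but they were also deeper, and in log2 CPM the groups overlapped. The asparagine tRNA mt-Tn had 794 to 3612 counts in βNrf2KO pools and 3078 to 10063 in control pools, and the cysteine tRNA mt-Tc 955 to 3243 in βNrf2KO and 3117 to 9180 in control. The tyrosine tRNA mt-Ty had 433 to 1366 counts in βNrf2KO pools and 996 to 2756 in control pools. The alanine tRNA mt-Ta had 98 to 448 counts in βNrf2KO pools and 401 to 1082 in control pools. Of the minus strand only mt-Tq, with 21 to 141 counts over all pools, and the serine tRNA mt-Ts1, with at most 1, were low.

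On the plus strand mt-Tl1, a leucine tRNA at the border of mt-Nd1, stood alone. It had 757, 565, 1134 and 517 counts in βNrf2KO pools 1 to 4, against 2265, 1590 and 928 in control pools 1, 2 and 4. All other plus-strand tRNAs together had 172 to 483 counts in βNrf2KO pools and 478 to 1226 in control pools. The first gene of the map, the phenylalanine tRNA mt-Tf, had 0 to 3 counts, the aspartate tRNA mt-Td at most 1, and the lysine tRNA mt-Tk 0 in all 7 pools. A count of 0 allows up to 3 counts, or 0.118 to 0.165 CPM by pool. Together with mt-Ts1, the isoleucine tRNA mt-Ti and the serine tRNA mt-Ts2, these were the 6 tRNAs too low to test.

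Summed over genes, minus-strand tRNAs held 10.4 to 19.2 times the counts of plus-strand tRNAs in βNrf2KO pools and 12.9 to 23.9 times in control pools, which overlapped. The strand setting of the counting was not given in the sources used here. If strand was not used, reads of a minus-strand tRNA and of the plus-strand RNA opposite it cannot be told apart, which touches these tRNAs and mt-Nd6. Neighbouring genes also share bases, from 1 base between mt-Atp6 and mt-Co3 to 43 between mt-Atp8 and mt-Atp6. How a read over a border of a tRNA and an mRNA was counted was not given either, so levels of tRNAs are compared between pools here and not with mRNAs.

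Genes inside the copied stretch held few counts. The stretch ran over 4653 mitochondrial bases, MT 6390 to 11042, with 11 genes wholly inside (6 mRNAs and 5 tRNAs), 2 partly inside (mt-Co1 and mt-Nd4) and 22 outside. The 6 mRNAs inside had 43 to 1510 counts per pool, and each of the other 7 mRNAs at least 116478. mt-Co2, which carries the copper site that receives electrons from cytochrome c, had 661, 524, 295 and 212 counts in βNrf2KO pools 1 to 4, against 1152, 1510 and 449 in control pools 1, 2 and 4. Counts of mt-Co3 were 643, 445, 315 and 196 in βNrf2KO pools, against 1086, 1336 and 433 in control pools. In both genes control pool 4 lay between βNrf2KO pools. mt-Atp6, part of the proton channel of ATP synthase, was counted 388, 301, 186 and 103 times in βNrf2KO pools, against 739, 952 and 288 times in control pools. Counts of mt-Atp8 were 164, 154, 59 and 43 in βNrf2KO pools, against 359, 518 and 153 in control pools. Counts of mt-Nd3 were 474, 384, 342 and 183 in βNrf2KO pools, against 1216, 1339 and 493 in control pools. The groups overlapped in raw counts for mt-Atp6 and mt-Atp8 and did not for mt-Nd3, whose log2 CPM overlapped. The rule for reads with several matches was not given in the sources used here, so the values of these 6 mRNAs describe the reads that remained and not the level of the RNA.

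The 7 genes of the nuclear copy moved with the mitochondrial genes. They summed to 4696, 3732, 2471 and 1708 counts in βNrf2KO pools 1 to 4, against 7373, 11211 and 3213 in control pools 1, 2 and 4. In nuclear CPM this was 91.1 to 357 in βNrf2KO pools and 148 to 959 in control pools, a wide spread. In mitochondrial CPM, scaled to the total of the mitochondrial genes instead, it was 615 to 931 in βNrf2KO pools and 794 to 891 in control pools, a narrow one. Their log2 fold changes ran from -1.66 for Gm10925, the partner of mt-Atp6, to -1.24 for Gm29216, the partner of mt-Co1, and 0 of 7 passed (edgeR adjusted p = 0.571 each). Gm28437 had 288 to 792 counts in βNrf2KO pools and 516 to 1783 in control pools, more than its partner mt-Co3 in every pool. Gm28438 instead had fewer than mt-Nd3, which held 3.89 to 7.90 times its counts over the 7 pools. mt-Atp8 has no annotated partner in the copy.

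**Figure D4:**
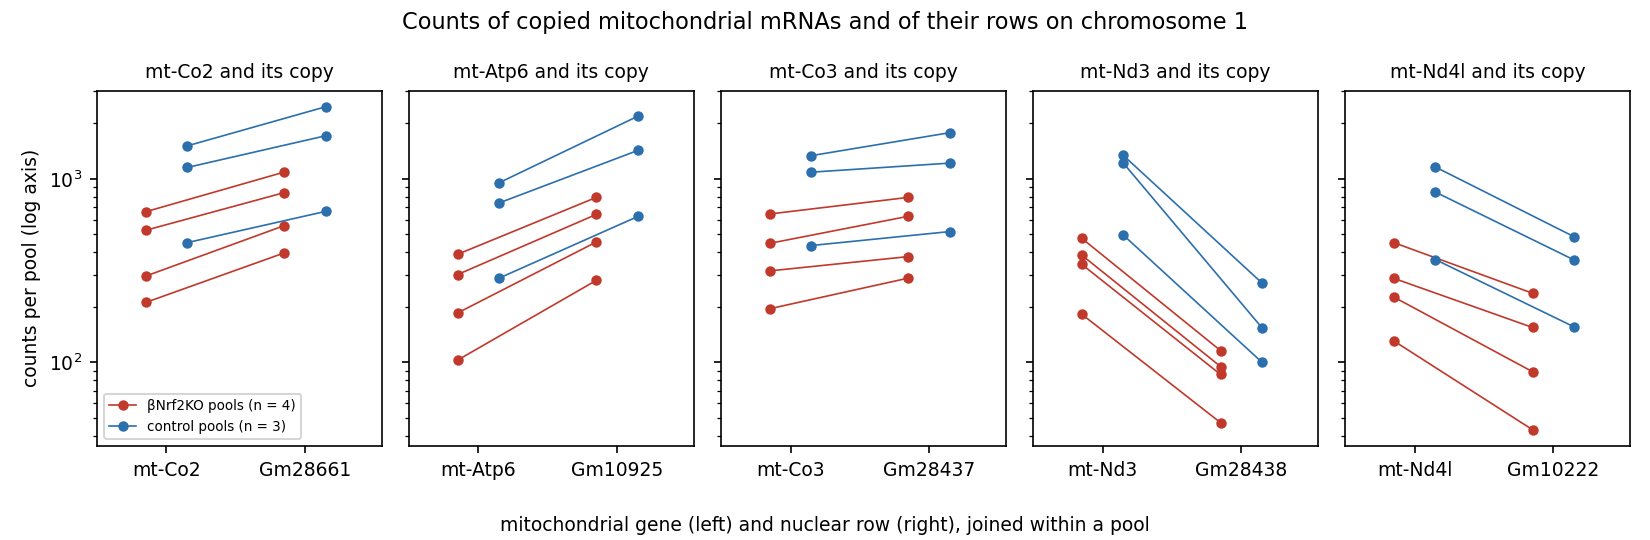
Counts per pool, on a log axis, of the 5 mitochondrial mRNAs wholly inside the copied stretch that have an annotated partner on chromosome 1, joined by a line to that partner's counts, with βNrf2KO pools left of control pools. The rows on chromosome 1 exceed mt-Co2, mt-Atp6 and mt-Co3 in every pool and lie below mt-Nd3 and mt-Nd4l in every pool, and all values lie between 43 and 2469 counts.

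Among the 7 mRNAs with most counts, composition varied far less than amount. These 7 mRNAs held 99.4% to 99.6% of mitochondrial counts in every pool. Their levels in CPM differed 4.41 to 5.79-fold between the highest and lowest pool, but their shares of mitochondrial counts only 1.04 to 1.29-fold. The coefficient of variation over the 7 pools was 52.9% to 57.9% for these levels and 1.40% to 9.12% for these shares. Shares of the other tested genes varied more, and all rest on far fewer counts. Between the highest and lowest pool they differed 1.56-fold for mt-Nd3 to 2.81-fold for mt-Atp8 among mRNAs of the copied stretch, and 1.35-fold for mt-Ty to 4.20-fold for mt-Tw among tRNAs. In mt-Tg the share varied more than the level, 4.11-fold against 3.44-fold. Of the 7 mRNAs mt-Nd1 was the steadiest, at 13.9% to 14.4% of mitochondrial counts in βNrf2KO pools and 14.4% in each control pool. mt-Co1 held 27.2% to 32.7% in βNrf2KO pools and 30.7% to 31.9% in control pools.

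Within this composition, some genes had shares that did not overlap between the groups. The share was lower in every βNrf2KO pool than in every control pool for 10 of the 29 tested genes (34.5%) and higher for 1 (3.45%), and the other 18 overlapped. The higher one was mt-Nd5, with 22.3%, 22.8%, 24.1% and 23.9% in βNrf2KO pools 1 to 4, against 20.9%, 21.7% and 20.7% in control pools 1, 2 and 4. mt-Cytb held 11.2%, 11.6%, 11.4% and 10.4% in βNrf2KO pools and 11.9%, 11.7% and 12.1% in control pools. Both differences are small beside those in level, and shares within 1 total are tied to each other. The other lower shares were those of mt-Atp8, mt-Nd3 and mt-Nd4l of the copied stretch and of the tRNAs mt-Tp, mt-Tn, mt-Tc, mt-Tw, mt-Tr and mt-Th. In the arginine tRNA mt-Tr and the histidine tRNA mt-Th these rest on 13 to 126 and 7 to 58 counts per pool. Such shares exist only for mitochondrial genes, so no background over all genes stands beside these numbers. No test was made of the shares.

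Ratios between single genes were also computed, since they do not depend on the mitochondrial total. Of 10 such ratios, 5 did not overlap between the groups and 5 did, and the separate ones all involve a gene whose share was separate. Counts of mt-Nd5 over mt-Nd1 were 1.599, 1.580, 1.680 and 1.690 in βNrf2KO pools 1 to 4, against 1.456, 1.502 and 1.433 in control pools 1, 2 and 4. Control pool 4, whose mitochondrial share of all counts lay inside the βNrf2KO range, had the lowest of these ratios. Counts of mt-Cytb over mt-Nd5 were 0.501, 0.507, 0.474 and 0.438 in βNrf2KO pools and 0.567, 0.540 and 0.586 in control pools. For tRNAs, mt-Tp had 8.03, 11.7, 10.3 and 8.69 counts per 1000 of mt-Cytb in βNrf2KO pools, against 12.9, 14.7 and 13.0 in control pools. mt-Tn had 2.19, 1.65, 1.88 and 1.32 counts per 1000 of mt-Co1 in βNrf2KO pools, against 2.33, 2.61 and 2.60 in control pools. These 4 ratios are among those whose groups did not overlap, so control pool 4 lies on the control side by that choice. Among the ratios that overlapped, mt-Co1 over mt-Nd5 was 1.13 to 1.47 in βNrf2KO pools and 1.42 to 1.54 in control pools. mt-Nd4 over mt-Co1 was 0.218 to 0.328 in βNrf2KO pools and 0.239 to 0.255 in control pools. mt-Nd2 over mt-Nd1 was 0.504 to 0.545 in βNrf2KO pools and 0.526 to 0.541 in control pools. For tRNAs, mt-Te had 21.9 to 41.4 counts per 1000 of mt-Nd6 in βNrf2KO pools and 27.5 to 33.9 in control pools. mt-Tl1 had 0.911 to 1.96 counts per 1000 of mt-Nd1 in βNrf2KO pools and 0.875 to 1.73 in control pools. All tRNAs together held 0.438%, 0.387%, 0.521% and 0.375% of mitochondrial counts in βNrf2KO pools and 0.510%, 0.556% and 0.568% in control pools, which overlapped through βNrf2KO pool 3. That pool had the highest share of mt-Te of all pools, 0.231%. The ratio of mt-Nd6 to mt-Nd5 per length, which compares the strands, was 0.771 to 0.840 in βNrf2KO pools and 0.841 to 0.862 in control pools, separate by a margin far below the spread within βNrf2KO.

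**Figure D5:**
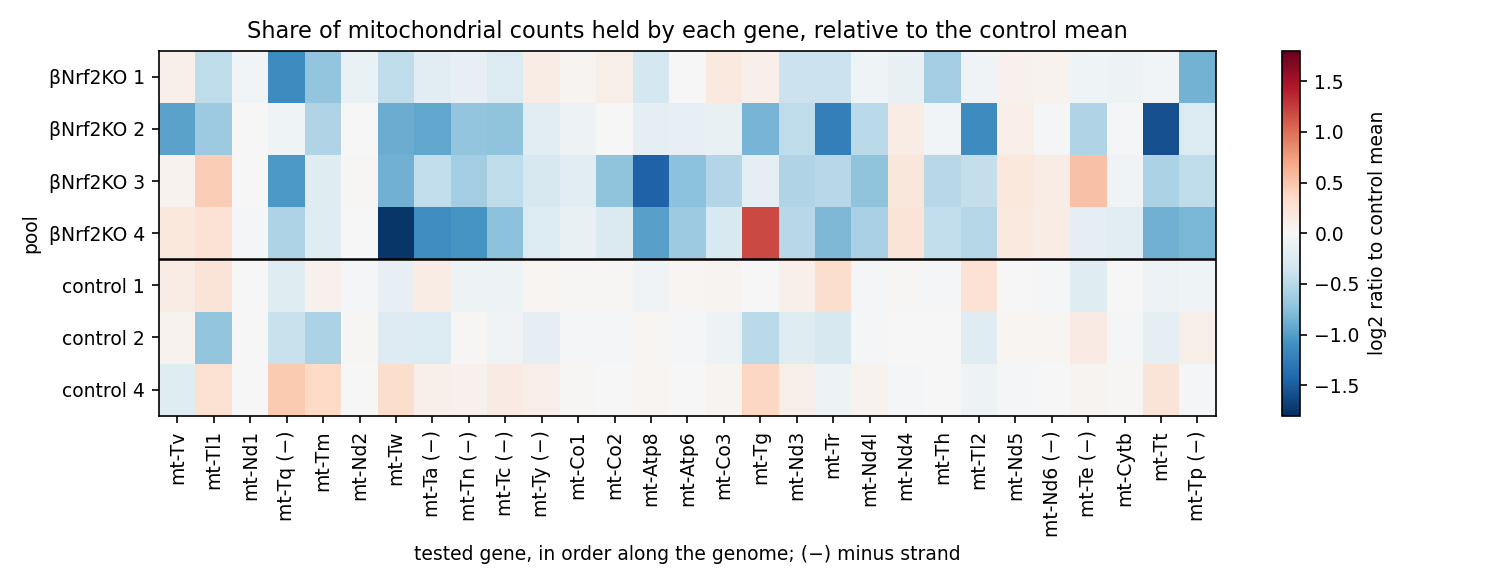
Share of mitochondrial counts held by each tested gene in each pool, as log2 of its ratio to the mean share in control pools, with βNrf2KO pools above control pools and genes in order along the genome. The 7 mRNAs with most counts stay near 0, and the lowest value is -1.75.

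The minus strand as a whole held 5.38% to 6.07% of mitochondrial counts in βNrf2KO pools and 5.48% to 5.75% in control pools, so the balance of strands overlapped. The difference of a gene was also set against its place along the genome. Across genes, which are not independent, Spearman's rho between the log2 fold change and the order was 0.00 over the 7 mRNAs with most counts, 0.19 over all 13 mRNAs and -0.23 over the 16 tested tRNAs. It was -0.48 over the 9 tested tRNAs of the plus strand. Over the 13 mRNAs the fold change followed the mean log2 CPM (rho = 0.80) and the gene length (rho = 0.77). Over the 7 mRNAs with most counts it did not, at rho = -0.11 and 0.18. Inside the stretch the median log2 fold change was -1.74 over 6 mRNAs, and it was -1.45 over the other 7.

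Nuclear genes that serve the expression of this genome had fold changes on both sides of 0. Of 114 genes in 8 roles, 112 had enough counts, and 0 passed the threshold (edgeR, background 0%) with or without the block. In βNrf2KO 78 were higher and 34 lower, where 50.6% of all tested genes were lower. Their median log2 fold change was 0.12, against -0.01 over all tested genes, and 6 of 112 had an unadjusted p under 0.05, all higher, where 8.46% of all tested genes had one in either direction. The groups did not overlap in 7 of 112, near the 7% of all tested genes. For the polymerase of the mitochondrial genome, Polrmt, log2 CPM averaged 3.65 ± 0.15 in βNrf2KO (SD, n = 4) and 3.77 ± 0.22 in control (SD, n = 3), a log2 fold change of -0.13 ± 0.19 (edgeR adjusted p = 0.819). Tfam, which packages mitochondrial DNA and starts its transcription, differed by 0.17 ± 0.24 (edgeR adjusted p = 0.816). Other transcription genes were Mterf1a (1.25 ± 0.41), whose human counterpart ends transcription in the gene of the leucine tRNA mt-Tl1, and Mterf3 (0.35 ± 0.18), a negative regulator. Of the genes that cut and mature the long RNA, Hsd17b10, a subunit of RNase P that frees the 5′ end of tRNAs, differed by 0.32 ± 0.22 and Fastkd5, in human cells needed to mature mRNAs not flanked by tRNAs, by 0.96 ± 0.41.

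The exonuclease Rexo2 and the RNA-binding protein Fastkd2, which act in decay and stability, differed by 0.43 ± 0.21 and 0.46 ± 0.20. Among enzymes that modify tRNAs, Qtrt1 differed by -0.58 ± 0.27 and Osgepl1 by 0.93 ± 0.30. In ribosome assembly the rRNA methyltransferase Nsun4 differed by 0.36 ± 0.21 and the GTPase Mtg2 by 0.52 ± 0.39. The synthetases that charge arginine and valine tRNAs, Rars2 and Vars2, differed by 0.41 ± 0.18 and -0.43 ± 0.23. In translation the elongation factor Gfm1 and the formyltransferase Mtfmt differed by 0.55 ± 0.20 and 0.51 ± 0.27. Of the genes for mitochondrial DNA itself, the nucleoside kinase Dguok differed by 0.52 ± 0.26 and the nuclease Endog by 1.25 ± 0.62. Adjusted p values of the named genes of these roles, Polrmt and Tfam apart, ran from 0.571 to 0.651 in the edgeR fit without the block.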

How the data were processed

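The authors deposited raw counts per gene for each of the 7 pools. Per the submitters' processing notes, the tools, named without their roles, were bcl2fastq (2.20), Trimmomatic (0.36), STAR (2.5.2b) and, from Subread (1.5.2), featureCounts. Sources used here do not give the strand setting or the rules for reads with several matches or over several genes. GRCm39 is named in the notes, but the file coordinates are those of GRCm38: all 35 mitochondrial genes had the start and end of GENCODE M21. The Cre row was left out of library sizes. Symbols came from the reference table, which matched 48970 of 49315 IDs.

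The test was edgeR's robust quasi-likelihood test (version 4.0.16, R 4.3.3), two-sided, after TMM and filterByExpr, with Benjamini-Hochberg adjustment over 19893 genes at a threshold of 0.05. Each log2 fold change has βNrf2KO on top and is given with its SE. Log2 CPM values carry TMM scaling and a prior count of 2. Sums, shares and ratios are described without a test. Floors of 3 counts and Wilson 95% intervals cover counting error only. Alternatives were other normalizations and filters, DESeq2 1.42.0, limma-voom (limma 3.58.1), the pool number as a block and leaving out each pool.

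The pool numbers were checked on the deviations from group means across genes. Same-numbered pools correlated at r = 0.376, 0.229 and 0.323 for numbers 1, 2 and 4, and the other 9 pairs across groups at -0.353 to 0.241. All 3 exceeded 0.1, so values with the block are given where they change a call. The highest of the other pairs, βNrf2KO pool 3 with control pool 4 at 0.241, lay above the pair numbered 2. The check therefore does not show that the numbers pair the pools. The labels do not say what the numbers stand for.

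The members and gene lists were chosen with earlier results of these data known. Named genes were all mitochondrial genes, the copy's genes with at least 10 counts in a pool, Tfam, Polrmt and the 2 genes of smallest p in each role.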

Additional observations from a re-analysis of the deposited data

Results flagged for a closer look

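In 4 of 59 sets of values over the 4 βNrf2KO pools, the lowest pool stood far from the others by Dixon's criterion for a single outlying value. Chance flags about 1 in 20 such sets. The valine tRNA mt-Tv had 2.56 mitochondrial CPM (counts scaled to a total of 1000000 over the mitochondrial genes) in βNrf2KO pool 2, with the next pool at 5.23. mt-Nd2 had 70209 mitochondrial CPM in βNrf2KO pool 1, with the next at 76656. In βNrf2KO pool 4, mt-Nd4 stood at 12.78 log2 CPM with the next pool at 14.04, and mt-Tp at 6.13 log2 CPM with the next at 7.79.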

How the results depend on the processing

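With the replicate block, edgeR called 9 mitochondrial genes and 14 genes in all, against 0 and 0 without it, and it changed no other call of a gene named. DESeq2 called 2 genes in all, neither mitochondrial, and leaving out each pool gave 0 to 1. The tRNA share of mitochondrial counts, lower by -0.114 percentage points in βNrf2KO, differed by -0.203 points over genes outside the copied stretch and by -0.191 points from medians per length. Leaving out each pool gave median log2 fold changes between -1.95 and -0.90 for mRNAs and between -2.28 and -1.27 for tRNAs, and a difference in share between -27.2 and -8.61 points, each pair of limits without control pool 4 and without control pool 2. Over the other alternatives run, which covered scaling, filters, tools and the block, the medians were -1.50 to -1.29 for mRNAs and -1.87 to -1.75 for tRNAs. In 433 alternative values of the 29 genes, 0 changed sign, and the range was -2.57 to -0.66. With no filter 34 mitochondrial genes were tested and 11 had an unadjusted p under 0.05, against 2620 of all 33919 genes tested. Depth limits the tRNAs with few counts, and the 3 control pools limit every comparison.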

Other observations

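Beside the copy on chromosome 1, other annotated transcripts aligned with mitochondrial mRNAs at lower identity. The closest were Gm13340, with 97.6% identity to mt-Co1 over 1545 bases, Gm13339, with 96.7% to mt-Nd2 over 510 bases, and Gm13341, with 95.9% to mt-Co2 over 684 bases. Only alignments longer than any tRNA were kept, so this search could not find relatives of the 22 tRNAs. Among those kept, the mRNAs mt-Nd1, mt-Nd3, mt-Nd4, mt-Nd4l and mt-Atp8 had no such relative outside the copy on chromosome 1.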
